A study of Mus musculus with 72 samples.

Results

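The genes described here encode the nuclear subunits of the mitochondrial respiratory chain and of ATP synthase, measured as RNA in mouse liver. They were the rows of the count table whose GENCODE symbol began with Nduf and a subunit letter and number, was Sdha to Sdhd, or began with Uqcr, with Cox4 to Cox8 or with Atp5, and that were protein coding with a mean level of at least 1 CPM (counts per gene scaled to a common library size). Of 55573 genes in the table, 97 matched by symbol, 85 of these were protein coding and 76 had the mean level required. These 76 members comprised 37 of complex I, 4 of complex II, 8 of complex III, 11 of complex IV and 16 of complex V. The symbols were taken as they stand, so the members include Ndufa4, which is now usually counted with complex IV, Cox7a2l, a factor for the joining of complexes into supercomplexes, and Atp5s, a coupling factor that is not a classic subunit.

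Livers came from 72 adult male C57BL/6 mice, 18 in each of 4 groups, with 3 mice at each of 6 zeitgeber times (ZT, hours after the lights came on) that lay 4 h apart from ZT2 to ZT22. All mice carried the loxP-flanked clock gene (Bmal1 fl/fl). WT mice carried nothing more, whereas LKO mice also carried Albumin-Cre, a recombinase driven by the albumin promoter and so directed to hepatocytes, which leaves Bmal1 intact in the other cells of the organ. Each genotype was kept either with its microbes under specific pathogen-free conditions (SPF) or without any microbe (germ free, GF) in flexible film isolators, and the GF mice were rederived from the SPF line. The mice ate autoclaved chow freely and were housed alone under equal hours of light and dark. Microbial status therefore goes together with the housing, and the 2 cannot be told apart in these groups.

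Electrons from NADH enter the chain at complex I and those from succinate at complex II, which is also an enzyme of the tricarboxylic acid cycle. They pass through ubiquinone, complex III and cytochrome c to complex IV, where oxygen is reduced, and complex V makes ATP from the proton gradient that complexes I, III and IV build. Apart from complex II, each complex joins subunits of the nuclear genome with a few encoded by the mitochondrial chromosome, and hepatocytes, which depend on fatty acid oxidation, are rich in all of them.

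Each library held 17369927 to 22076113 counts (median 19106726), and the depth ranges of the 4 groups overlapped. Bmal1, listed as Arntl, was counted over the whole gene, deleted part included, so its level does not by itself check a genotype. Over the libraries of a group it ran from 0.626 to 39.5 CPM in SPF WT, from 0.332 to 41 in GF WT, from 8.52 to 29.3 in SPF LKO and from 7.06 to 13.4 in GF LKO mice. Clock genes went against the labels in 2 SPF LKO libraries. Npas2, a partner of Bmal1 in the clock, had 0.221 CPM in replicate 2 labelled SPF LKO at ZT14 and 24.0 to 25.2 in the other SPF LKO libraries of that ZT. In replicate 1 labelled SPF LKO at ZT18 it had 1.83 CPM, whereas its fellows held 27.6 to 36.4. The SPF WT libraries held 0.0531 to 0.206 CPM at ZT14 and 0.109 to 2.77 at ZT18. Arntl stood apart in replicate 3 labelled SPF WT at ZT14 (2.11 CPM, the others 15.8 to 19.3) and in replicate 3 labelled GF WT at ZT6 (8.24 CPM, the others 1.64 to 2.42). All libraries were kept under their labels. Counts with ZT pooled and counts for rhythms are also given without those of the 4 that they rest on. Within a single ZT, libraries were left out only 1 at a time. All 10 hepatocyte markers were detected, whereas the summed level of 8 skeletal muscle markers was at most 1.51 CPM in any library. Albumin itself (Alb) was lower in LKO libraries, with a median of 36380 CPM in SPF LKO and 83740 in SPF WT, and of 32180 in GF LKO and 103900 in GF WT mice. The exceptions in SPF LKO mice were both libraries with low Npas2, which held 83340 and 102300 CPM of Alb beside 24680 to 49900 in the other 16. The part of Alb in the results by genotype was not tested.

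The promoters of these genes are known to share sites for a small set of factors, among them NRF1, ETS proteins such as GABP, YY1 and the oestrogen-related receptors (ERR). RefSeq gave a window from 250 bases before to 50 bases after the transcription start for 63 of the 76 members, on GRCm38.p6. The letters GCATGCGC (NRF1) were found on either strand in 9 of the 63 members (14.3%) and in 3.0% of 27025 genes, and CCGGAAG (ETS) in 16 (25.4%) and 9.9%. AAGATGGC (YY1) was found in 10 members (15.9%) and 3.2% of genes, TCAAGGTCA (ERR) in 2 (3.2%) and 0.5%, the clock E-box CACGTG in 6 (9.5%) and 8.1%, and TAGGTCA, part of the ROR element, in 3 (4.8%) and 3.0%. Of the 63 members, 34 held none of the NRF1, ETS and YY1 letters and 6 held at least 2 of the 3, and a match names no bound site. The windows of 4 genes follow, chosen because the results below turn on these genes, each written 5′ to 3′ along the gene with the matched letters in capitals. Cox6b1, the member with the largest rise from SPF to GF in WT mice, has its window on the minus strand at chr7:30626065-30626364, with ETS letters on the reverse strand 28 bases before the start. Sdhd, which encodes a membrane anchor of complex II, has its window on the minus strand at chr9:50603800-50604099, with ETS letters 46 bases before the start and ERR letters 37 bases after it, both on the reverse strand. Atp5k, a small subunit of complex V, has its window on the minus strand at chr5:108434350-108434649, with ETS letters 13 bases after the start and NRF1 letters on both strands, which overlap because the sequence is nearly its own reverse complement, 50 and 48 bases before it. Ndufv3, an accessory subunit of the NADH-binding module of complex I, has its window on the plus strand at chr17:31519865-31520164 and held none of the 6 motifs.
Cox6b1: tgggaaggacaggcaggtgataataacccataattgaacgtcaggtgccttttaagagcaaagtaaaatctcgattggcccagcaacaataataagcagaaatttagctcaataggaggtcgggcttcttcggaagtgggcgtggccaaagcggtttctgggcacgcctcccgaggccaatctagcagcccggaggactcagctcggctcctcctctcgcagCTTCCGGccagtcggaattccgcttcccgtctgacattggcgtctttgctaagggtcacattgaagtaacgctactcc
Sdhd: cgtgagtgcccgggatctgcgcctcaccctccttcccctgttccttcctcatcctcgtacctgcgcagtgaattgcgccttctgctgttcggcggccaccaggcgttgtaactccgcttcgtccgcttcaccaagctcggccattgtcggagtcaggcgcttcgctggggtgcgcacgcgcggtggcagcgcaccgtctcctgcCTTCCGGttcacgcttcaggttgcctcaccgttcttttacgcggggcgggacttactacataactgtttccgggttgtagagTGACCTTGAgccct
Atp5k: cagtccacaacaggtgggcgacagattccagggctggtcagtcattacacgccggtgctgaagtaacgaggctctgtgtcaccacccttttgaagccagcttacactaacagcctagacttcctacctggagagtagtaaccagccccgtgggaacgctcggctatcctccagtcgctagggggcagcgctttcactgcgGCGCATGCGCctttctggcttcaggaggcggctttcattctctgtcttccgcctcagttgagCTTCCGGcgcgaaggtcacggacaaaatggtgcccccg
Ndufv3: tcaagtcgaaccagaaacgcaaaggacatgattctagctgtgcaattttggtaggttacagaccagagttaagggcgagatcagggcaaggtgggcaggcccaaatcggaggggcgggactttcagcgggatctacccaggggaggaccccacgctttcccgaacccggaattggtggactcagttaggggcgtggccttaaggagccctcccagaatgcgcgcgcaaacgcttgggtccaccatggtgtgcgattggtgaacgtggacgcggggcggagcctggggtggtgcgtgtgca

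Levels were compared between genes only per kilobase of exon, as the mean over all 72 libraries. In complex I the median member had 64.5 CPM per kb, and the range ran from Ndufa4, at 262.2, to Ndufb4, a membrane arm subunit, at 0.775. The succinate dehydrogenase genes of complex II stood at 243.8 for Sdhd, 169.4 for the flavoprotein Sdha, 120.8 for the iron-sulphur protein Sdhb and 62.1 for the anchor Sdhc. Complex III ran from Uqcr10 (220.6) to the core protein Uqcrc1 (50.5), complex IV from Cox6b1 (334.6) to Cox5b (22.3), and complex V from Atp5a1, the alpha subunit of the catalytic head (389.7), to Atp5l, subunit g of the membrane part (0.339). The medians of complexes II to V were 145.1, 125.2, 175.7 and 75.9 CPM per kb. In complex I, Ndufa4l2 (1.02 CPM) and Ndufb4 (1.49 CPM) lay just inside the minimum of 1 CPM, as did Atp5l (2.18 CPM) in complex V. Just outside it lay Atp5g2 (0.741 CPM) and Cox7a1 (0.695 CPM). Reads that aligned to several places had been dropped, so levels of genes with near copies, such as Atp5l, which has 3 listed pseudogenes, are uncertain.

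Where a subunit has tissue forms, the liver libraries held mostly one of them. Cox4i1 averaged 209.4 CPM per kb and Cox4i2 0.0641, Cox6a1 207.9 and the muscle form Cox6a2 0.0365, and Cox6b1 334.6 and the testis form Cox6b2 0.109 CPM per kb. Cox7a2 averaged 224.8 CPM per kb beside 1.30 for Cox7a1, the heart and muscle form, and Cox8a 254.2 beside 0.0502 for Cox8b. Of the genes for subunit c of complex V, whose products are alike after import, Atp5g3 averaged 202.7 CPM per kb, Atp5g1 5.32 and Atp5g2 0.442. The exon length used was 4912 bases for Atp5g1 and 2181 for Atp5g3, and reads with several places had been dropped. The sizes of these differences are therefore uncertain, and no tissue form is read from them.

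The first comparison asked how the presence of microbes bears on the subunits in mice with an intact liver clock. In WT mice 69 of the 76 members were higher in GF than in SPF mice and 1 was lower, at a Benjamini-Hochberg adjusted p under 0.05 in the quasi-likelihood test of edgeR (passed the test, in what follows). Over all 12776 genes tested, 14.2% were higher and 17.7% lower. The median log2 fold change of the members was 0.29, and that of all genes -0.02. The rise reached every complex, with 32 of 37 members of complex I, 4 of 4 of complex II, 8 of 8 of complex III, 11 of 11 of complex IV and 14 of 16 of complex V. The summed level of the 76 members was lowest at 9604, had its median at 11650 and was highest at 14390 CPM over the SPF WT libraries, and ran over 13310, 14840 and 16110 CPM in the same way over the GF WT libraries. The groups thus overlapped, with 13 of 18 GF WT libraries above the highest SPF WT library, and in bulk liver fewer cells of a type and less RNA per cell cannot be told apart. No member separated the 18 libraries of one group from the 18 of the other, and the share of all genes that did so was not counted. Without the 2 doubtful WT libraries 66 members were higher and 1 was lower, all among those called with them. Markers of cell types moved with this comparison. Of 10 hepatocyte markers 7 were higher in GF WT mice and 0 lower (median 0.29), with a summed level of 127700 to 183700 CPM in GF WT and 95690 to 145100 CPM in SPF WT mice. Of 9 sinusoidal endothelial markers 4 were lower and 1 higher (median -0.14), and of 10 Kupffer cell markers 1 was lower (median -0.18). Of 5 cholangiocyte markers tested 2 were lower and 0 higher (median -0.13), and of 9 stellate cell markers 1 was lower and 0 higher (-0.11). Their part in the result was not tested.

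**Figure D1:**
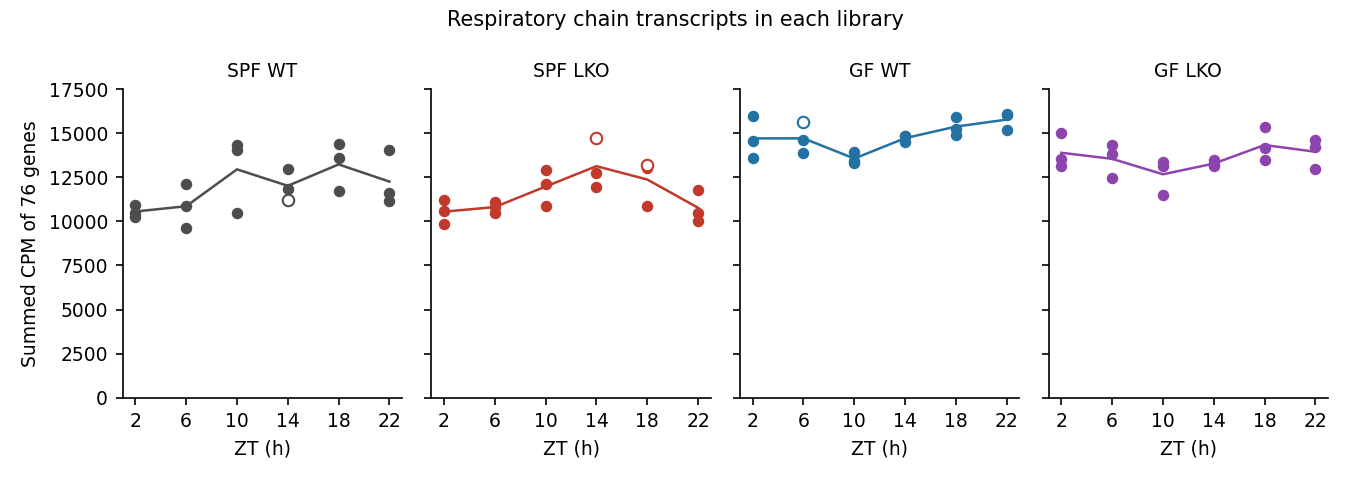
Summed level of the 76 members in CPM (y axis, from 0) against ZT in hours (x axis) in 4 panels, 1 per group. Each point is a library, open points are the 4 libraries whose clock genes stood apart, and the line joins the means of 3 libraries, which lie between 10550 and 13230 CPM in the SPF panels and between 12670 and 15770 CPM in the GF panels.

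The largest of these differences was in Cox6b1, a subunit at the face of complex IV where cytochrome c binds. It had 172.0, 205.0 and 272.9 CPM (lowest, median and highest library) in SPF WT and 223.2, 292.1 and 358.5 CPM in GF WT mice, a log2 difference of 0.44 ± 0.06 (SE, n = 18 per group, adjusted p = 1.28e-06 by edgeR). The ranges met only between 223.2 and 272.9 CPM. Cox8a, a small subunit of the same complex, differed by 0.41 ± 0.10, Ndufa5, of the matrix arm of complex I, by 0.40 ± 0.08, Ndufb7, of its membrane arm, by 0.39 ± 0.06, and Atp5d, the delta subunit of complex V, by 0.39 ± 0.07. Within complex II all members rose, by 0.28 for Sdha, 0.33 for Sdhb, 0.14 for Sdhc and 0.25 for Sdhd. Not past the test were Ndufa1, Ndufa4l2, Ndufb2, Ndufb4, the large iron-sulphur protein Ndufs1 (log2 difference 0.13, adjusted p = 0.103) and Atp5s (0.15, adjusted p = 0.269).

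Atp5l went the other way. Its libraries ran over 1.41, 3.22 and 4.76 CPM in SPF WT and 0.556, 1.33 and 2.59 CPM in GF WT mice, a log2 difference of -1.19 ± 0.18 (SE, adjusted p = 6.11e-06 by edgeR). In LKO mice it ran over 0.976, 2.87 and 4.52 CPM under SPF and 0.908, 1.43 and 2.45 CPM under GF conditions, a difference of -0.86 ± 0.17 (adjusted p = 0.000178). Most GF libraries lay below most SPF libraries, at levels of a few CPM in a gene that has pseudogenes.

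In LKO mice, which lack Bmal1 in hepatocytes, 66 members were higher in GF than in SPF mice and 1 was lower, beside 18.1% and 18.4% of all 13010 genes tested. The median log2 fold change was 0.25, and that of all genes -0.02. By complex, 32, 4, 7, 9 and 14 members of complexes I to V rose. The summed level ran over 9875, 11170 and 14700 CPM in SPF LKO and 11500, 13480 and 15340 CPM in GF LKO mice, so the overlap was wider than in WT mice, with 2 GF LKO libraries above the highest SPF LKO library. Of the members higher in GF mice, 64 were called in both genotypes (of 69 in WT and 66 in LKO mice). The share of all genes called in both was not counted, and both comparisons followed exon length in genes at large, as given below. Atp5g1 had the largest difference, with 15.7, 21.2 and 29.1 CPM in SPF LKO and 20.97, 29.96 and 38.95 CPM in GF LKO mice, a log2 difference of 0.49 ± 0.08 (SE, adjusted p = 8.31e-06 by edgeR). The median GF LKO library lay above the highest SPF LKO library. Cox7a2 differed by 0.42 ± 0.08, Cox6b1 by 0.36 ± 0.07, Ndufb7 by 0.36 ± 0.07 and Ndufa2, of the matrix arm of complex I, by 0.36 ± 0.08. Without the 2 SPF LKO libraries whose Npas2 went against their labels, 71 members passed the test, including all 67 called with them, and the median was 0.30. Of the hepatocyte markers 6 of 10 were higher in GF LKO mice and 1 lower (median 0.28). Their summed level was 66290 to 93010 CPM in GF LKO and 53730 to 138200 CPM in SPF LKO mice. The SPF LKO range includes the 2 libraries with low Npas2. Alb, 1 of these markers, stood there at 83340 and 102300 CPM, beside 24680 to 49900 in the other 16. Of the endothelial markers 4 of 9 were lower and 1 higher (median -0.11), and of the Kupffer cell markers 1 of 10 was lower (median -0.14). Of the stellate cell markers 1 of 9 was higher and 1 lower (median -0.04), and of 5 cholangiocyte markers tested 1 was lower and 0 higher (0.07). Their part in the result was not tested.

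**Figure D2:**
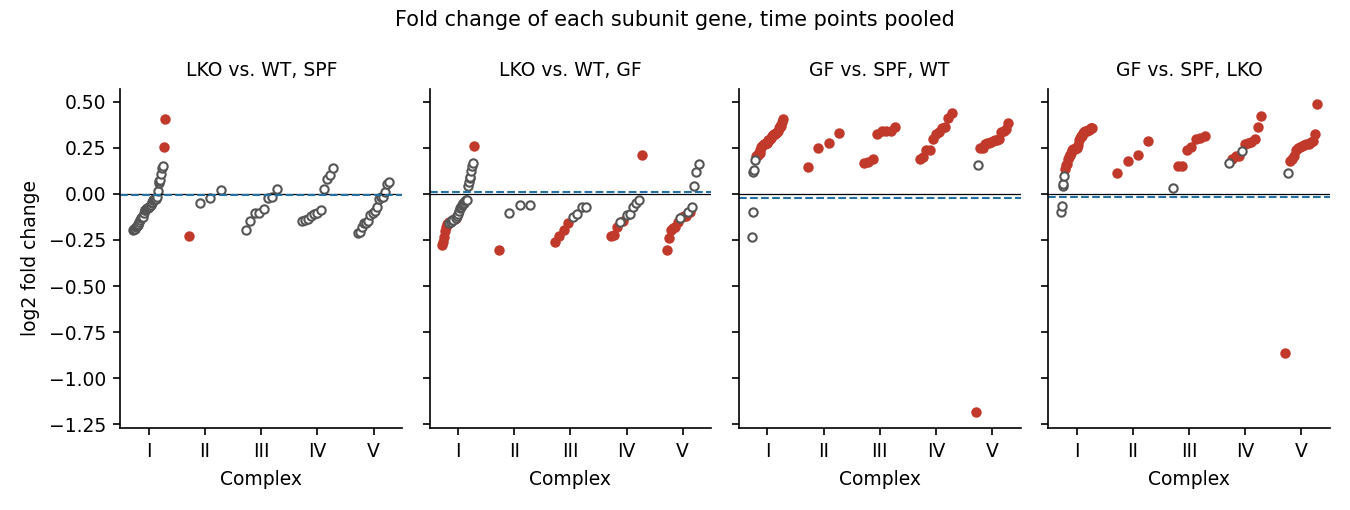
Log2 fold change of each member (y axis) by complex (x axis) in 4 panels, for LKO against WT in SPF and in GF mice and for GF against SPF in WT and in LKO mice. Red points passed edgeR's test and open points did not; the dashed blue line is the median of all genes, and 73 of 76 members lie above 0 in each GF against SPF panel but 18 and 12 in the SPF and GF genotype panels.

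The differences between GF and SPF libraries followed exon length in genes at large. Among other genes with a mean of at least 10 CPM in WT mice, the median log2 fold change was 0.23 for those with up to 1000 exonic bases, 0.17 up to 2000, 0.09 up to 4000 and -0.02 above 4000. The members' medians in the same classes were 0.33, 0.30, 0.29 and 0.26. In LKO mice the other genes had 0.24, 0.18, 0.09 and -0.02, and the members 0.27, 0.28, 0.22 and 0.21. The members, of 419 to 8086 exonic bases with a median of 1652, therefore lay above other genes in every class, least among the shortest genes, and nearly level with them there in LKO mice. With an offset for gene length, chosen after seeing the data, 37 members were higher and 3 lower in WT mice (median 0.11, all genes -0.06), and 27 higher and 3 lower in LKO mice (median 0.10, all genes -0.05). Over all genes 3636 were called under the offset in WT and 4443 in LKO mice, higher and lower together. Under that offset Cox6b1 kept its call in WT mice (0.17) and lost it in LKO mice (0.10), Cox8a lost its call in WT mice (0.14) and Ndufa2 in LKO mice (0.07), whereas Ndufb7 (0.36 in WT and 0.33 in LKO mice), Atp5g1 in LKO mice (0.47) and Atp5l (-1.17 and -0.85) moved little. The genotype comparisons showed no such order by length, with medians of other genes between -0.01 and 0.004. The offset still moved the genotype count in SPF mice, to 5 members higher and 18 lower.

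**Figure D3:**
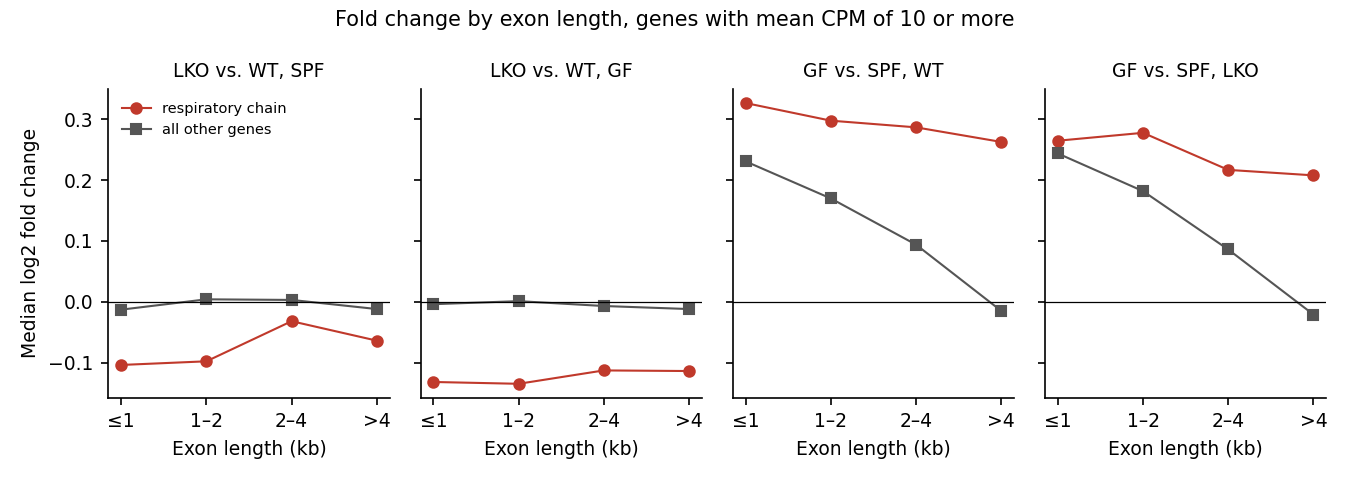
Median log2 fold change (y axis) by class of exon length in bases (x axis) for the members, in red, and other genes with a mean of at least 10 CPM, in grey, in each of the 4 comparisons. For GF against SPF the grey medians descend from 0.23 to -0.02 in WT and from 0.24 to -0.02 in LKO mice, and the red medians lie between 0.33 and 0.21.

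Loss of the liver clock moved fewer members. In SPF mice 2 of 76 were higher and 1 lower in LKO than in WT mice, beside 11.6% and 11.5% of all 13159 genes tested. The members did not reach these shares in this fit. The median log2 fold change was -0.08 (all genes -0.005), 18 members were positive, and 15 had an unadjusted p under 0.05. Ndufv3 had 56.8, 67.3 and 86.8 CPM in SPF WT and 69.8, 83.5 and 101.0 CPM in SPF LKO mice, a log2 difference of 0.25 ± 0.06 (SE, adjusted p = 0.000962 by edgeR). Ndufa4l2, a relative of Ndufa4 known to be induced by hypoxia, had 0.523, 0.825 and 1.24 CPM in SPF WT and 0.628, 1.16 and 2.04 CPM in SPF LKO mice. The difference was 0.40 ± 0.15 (adjusted p = 0.0421 by edgeR) at a level near the limit of the set. The call of Ndufa4l2 was lost with DESeq2, with the gene-length offset and with the replicate number as a block. Sdhd was the member that fell, with 236.8, 291.2 and 373.7 CPM in SPF WT and 198.2, 245.7 and 342.9 CPM in SPF LKO mice, a difference of -0.23 ± 0.07 (adjusted p = 0.0208). For each of these genes the 18 libraries of one genotype overlapped those of the other over much of their range. The count depended on the model and on the 2 doubtful SPF LKO libraries. With every library kept, ZT as a covariate gave 3 higher and 5 lower, and the replicate number as a block 2 and 7. The gene-length offset gave 5 and 18. Without the 2 doubtful libraries 2 members were higher and 19 lower (median -0.12), the 3 members named here among them. Ndufv3 stood at 0.27 and Sdhd at -0.29. Over all genes 3695 were called in that fit, higher and lower together, and their shares by direction are not given. Whether the members fell short of all genes there is therefore not shown. Beside this, 6 of 10 Kupffer cell markers were lower in SPF LKO mice and 0 higher (median -0.27). Their summed levels were 242.1 to 400.8 CPM in SPF LKO and 257.1 to 666.1 CPM in SPF WT mice. Of 9 endothelial markers 2 were lower and 0 higher (median -0.09), and of 9 stellate cell markers 2 were higher and 0 lower (0.18). Of 10 hepatocyte markers 1 was higher and 1 lower (-0.02), and of 5 cholangiocyte markers tested 1 was higher and 0 lower (0.02). The part of these markers in the result was not tested.

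In GF mice 2 members were higher and 31 lower in LKO than in WT mice. Of all 12662 genes tested 15.6% were higher and 15.2% lower. The median was -0.12 (all genes 0.008) and 12 members were positive. The members that fell were 12 of complex I, 1 of complex II, 4 of complex III, 4 of complex IV and 10 of complex V. The summed level ran over 13310, 14840 and 16110 CPM in GF WT and 11500, 13480 and 15340 CPM in GF LKO mice, and no GF LKO library lay above the highest GF WT library. Alb, which takes a large part of a library, had a mean of 108900 CPM in GF WT and 33280 CPM in GF LKO mice, and moved with this comparison. Of the Kupffer cell markers 4 of 10 fell and 0 rose in GF LKO mice (median -0.21, summed level 172.1 to 373.1 CPM, and 222.1 to 434.0 CPM in GF WT mice). Of the hepatocyte markers 3 were higher and 3 lower (median -0.08), of 5 cholangiocyte markers tested 2 were higher and 0 lower (median 0.24), and of the endothelial markers 1 was higher and 2 were lower (median -0.13). Of 9 stellate cell markers 2 were higher and 0 lower (median 0.18). The part of these markers in the result was not tested.

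Sdhd fell most in GF mice, from 291.0, 352.5 and 424.7 CPM in WT to 241.0, 286.9 and 338.1 CPM in LKO mice (log2 difference -0.30 ± 0.05, SE, adjusted p = 2.93e-06 by edgeR). The median GF LKO library lay below the lowest GF WT library. The other members of complex II did not pass the test, with -0.06 for Sdha (adjusted p = 0.235), -0.10 for Sdhb (0.062) and -0.06 for Sdhc (0.221). Atp5k had 108.6, 154.6 and 192.9 CPM in WT and 87.9, 127.6 and 154.7 CPM in LKO mice (-0.30 ± 0.07, adjusted p = 0.000384). The highest GF LKO library of Atp5k thus reached the median of GF WT mice. Ndufa5 fell by 0.28 on the log2 scale, Ndufb9, of the membrane arm of complex I, by 0.26 and Uqcr11, a small subunit of complex III, by 0.26. Falls past the test also included Cox4i1 (-0.15), Cox5b (-0.22) and Cox6b1 (-0.23) of complex IV and Atp5a1 (-0.12) of complex V.

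The members that rose in GF mice were Ndufv3 and Cox7a2l. Ndufv3 had 69.6, 89.5 and 103.9 CPM in GF WT and 90.5, 103.3 and 117.2 CPM in GF LKO mice, a difference of 0.26 ± 0.05 (SE, adjusted p = 2.27e-05 by edgeR), and every LKO library lay above the WT median. Cox7a2l had 55.8, 67.4 and 76.6 CPM in WT and 67.8, 76.5 and 87.3 CPM in LKO mice, a difference of 0.21 ± 0.04 (adjusted p = 0.000233), and its median in LKO mice was close to the highest WT library. In SPF mice Cox7a2l differed by 0.14 ± 0.07 (adjusted p = 0.170). Ndufv3 was higher, and Sdhd lower, in LKO mice under both microbial conditions, and these were the only members called in both. Without replicate 3 labelled GF WT at ZT6, 4 members were higher and 29 lower in GF LKO mice, 31 of them among the 33 called with it.

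Whether the genotype effect itself differed between GF and SPF mice was tested on all 72 libraries. No member passed (background 0.438% of 13484 genes), with 3 at an unadjusted p under 0.05 by edgeR's quasi-likelihood test and 0 called by DESeq2. Without the 4 doubtful libraries 0 passed as well. The median difference of effects was -0.05, with Ndufa10, an accessory subunit of complex I singled out here for its smallest p, at -0.16 (unadjusted p = 0.00588). The larger number of members called in GF mice is therefore not shown to be a difference between the microbial conditions.

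Within single ZT, with 3 mice against 3, few members passed. From ZT2 to ZT22 the counts in SPF mice were 0 (background 6.89%), 0 (7.26%), 1 (11.9%), 0 (0%), 0 (0.015%) and 0 (3.31%). By the same test of edgeR, 17, 2, 10, 5, 2 and 20 members had an unadjusted p under 0.05 at these ZT. In GF mice they were 0 (4.21%), 1 (11.7%), 0 (13.1%), 0 (6.1%), 1 (8.43%) and 0 (4.44%), with 6, 7, 1, 10, 17 and 10 members at an unadjusted p under 0.05. DESeq2 called 1, 1, 1, 1, 0 and 1 members in SPF mice and 0, 1, 0, 1, 6 and 0 in GF mice at these ZT. The medians of the members in SPF mice were -0.10, -0.005, -0.18, 0.17, -0.10 and -0.26 from ZT2 to ZT22, and in GF mice -0.12, -0.14, -0.11, -0.16, -0.03 and -0.17. ZT14 in SPF mice was thus the exception in sign, with 66 of 76 members positive, and it holds a doubtful library in either genotype. SPF LKO mice at ZT18 and GF WT mice at ZT6 also hold a doubtful library.

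The members called at single ZT are named here because they were called, after their values were seen. At ZT10 in SPF mice it was Cox5a, which held 103.9, 86.9 and 107.5 CPM in WT and 127.1, 125.9 and 125.0 CPM in LKO replicates 1 to 3 (log2 difference 0.34, adjusted p = 0.0342 by edgeR). At ZT6 in GF mice it was Ndufa8, with 81.1, 76.5 and 85.5 CPM in WT and 66.3, 61.3 and 66.2 CPM in LKO replicates (-0.33, adjusted p = 0.0430), and at ZT18 Ndufa12, with 30.5, 26.3 and 25.04 CPM in WT and 36.8, 41.3 and 31.5 CPM in LKO replicates (0.45, adjusted p = 0.0436). At ZT6 in GF mice 0 members passed in every fit that left out 1 library, and at ZT18 there 0 to 1. At ZT10 in SPF mice the count changed in 4 of the 6 fits that left out 1 library. It was 0 without SPF LKO replicate 1. Without SPF WT replicate 2, in which Ndufa5 had 40.9 CPM beside 77.8 and 67.9, 23 members passed. The share of all genes in that fit is not given.

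**Figure D4:**
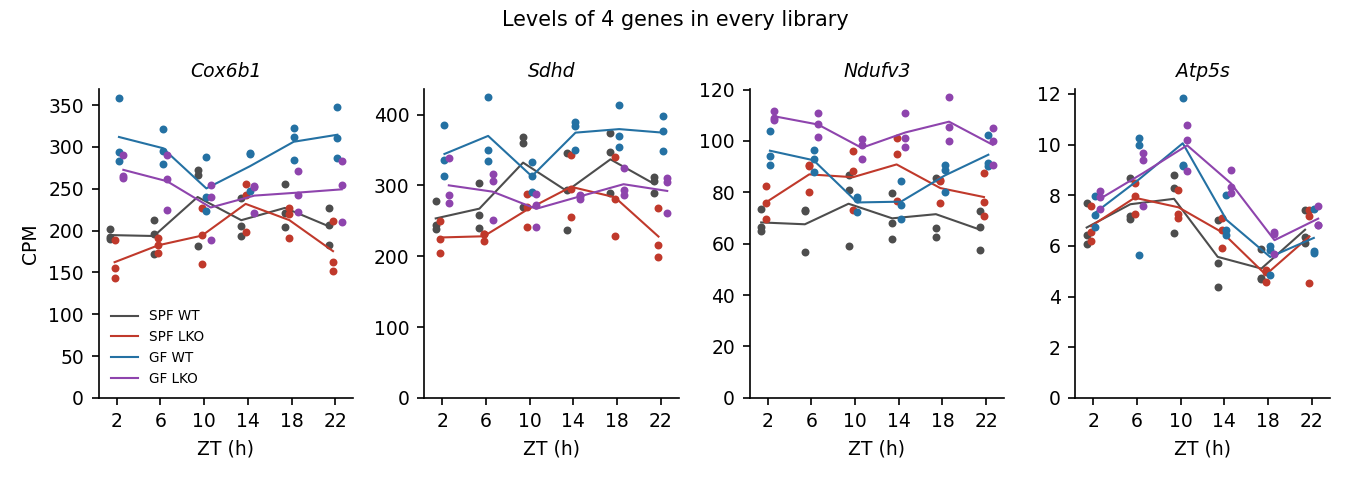
Level in CPM (y axis) against ZT in hours (x axis) of Cox6b1, Sdhd, Ndufv3 and Atp5s, 1 panel each, in the 4 groups by colour. Points are libraries and lines join the means of 3 libraries; Cox6b1 has its means between 162.2 and 240.1 CPM in SPF and between 227.6 and 314.6 CPM in GF mice.

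The daily course of the members was tested within each group by a cosine of 24 h fitted in edgeR, with amplitudes on the log2 scale from the mean to the peak. In SPF WT mice 3 of 76 members were rhythmic (3.95%, background 15.5%) and in SPF LKO mice 49 (64.5%, background 22.2%). In GF WT mice there were 21 (27.6%, background 27.7%) and in GF LKO mice 12 (15.8%, background 36%). Only in SPF LKO mice did the share of members exceed that of all genes. At an unadjusted p under 0.05 there were 19, 63, 38 and 27. With a mean for each ZT in place of the cosine there were 0, 1, 2 and 8, and with the gene-length offset 20 in SPF LKO mice. Leaving out single libraries moved the count between 9 and 32 in GF WT mice. Shares of all genes stand only beside the main fits of rhythms and of their differences, not beside the alternatives or fits without doubtful libraries. The median amplitude over all 76 members was 0.14 in SPF WT, 0.20 in SPF LKO, 0.13 in GF WT and 0.12 in GF LKO mice, and over all genes 0.17, 0.17, 0.18 and 0.18. The fitted peaks, called or not, lay between ZT12 and ZT18 for 65 members in SPF WT and 71 in SPF LKO mice, and for 12 and 7 in GF WT and GF LKO mice. Between ZT18 and ZT24 there were 4 and 0 in the SPF groups and 42 and 54 in the GF groups. The median log2 level of the members, each against its own mean, was 0.24, -0.38 and 0.19 in the SPF WT libraries at ZT10. Peaks of different members are therefore not independent of each other, and the peaks of all genes were not counted.

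In SPF LKO mice 48 of the 49 called members peaked between ZT12 and ZT18, the early night, when mice begin to feed. They comprised 24 members of complex I, 2 of complex II, 4 of complex III, 7 of complex IV and 11 of complex V. Ndufa5 had the largest amplitude of a called member, 0.36 with its peak at ZT14.1 (adjusted p = 0.00277 by edgeR). Its replicates held 32.1, 37.7 and 38.3 CPM at ZT2, 46.98, 37.6 and 37.5 at ZT6, 52.7, 47.9 and 53.7 at ZT10, 58.5, 78.7 and 47.9 at ZT14, 57.9, 43.1 and 51.4 at ZT18 and 50.5, 38.9 and 37.8 at ZT22. The highest of these 18 values, 78.7 CPM, belonged to the doubtful library of ZT14. Ndufa2 followed with 0.30 at ZT14.0, Uqcrh, the hinge protein of complex III, with 0.30 at ZT14.7 and Ndufb2 with 0.30 at ZT13.8. Without the 2 doubtful libraries 27 members were rhythmic, of which 26 were among the 49, and Ndufb2 lost its call (adjusted p = 0.0709 by edgeR).

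In SPF WT mice the called members were Ndufs1, with an amplitude of 0.20 and a peak at ZT15.7 (adjusted p = 0.0146 by edgeR), Cox8a with 0.31 at ZT18.7 (0.0465) and Atp5s with 0.28 at ZT5.9 (0.0464). Cox8a held 95.4, 109.0 and 107.8 CPM at ZT2 and 232.7, 162.8 and 117.9 CPM at ZT22, so its replicates spread widely near the peak. Without replicate 3 labelled SPF WT at ZT14, whose Arntl was low for its ZT, 9 members were rhythmic in this group. In GF WT mice the largest amplitudes after Atp5s were those of Atp5k (0.21, peak ZT22.1), Uqcrc1 (0.19, ZT15.9), Ndufb10 (0.19, ZT18.1) and Ndufa3 (0.19, ZT23.3), and the peaks of the 21 called members were spread over the day, with 4 between ZT12 and ZT18, 10 between ZT18 and ZT24 and 7 between ZT0 and ZT12. Without replicate 3 labelled GF WT at ZT6, 28 members were rhythmic, of which 20 were among the 21. In GF LKO mice 11 of 12 called members peaked between ZT18.5 and ZT22.4, led by Ndufa12 (0.26, ZT20.0), Atp5d (0.22, ZT18.5), Atp5g1 (0.22, ZT21.5) and Cox7c (0.19, ZT22.4).

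Atp5s was the one member called rhythmic in all 4 groups, and its peaks fell in the light hours. Its amplitude was 0.28 in SPF WT, 0.28 in SPF LKO, 0.38 in GF WT and 0.29 in GF LKO mice, with peaks at ZT5.9, ZT6.7, ZT8.0 and ZT8.5. In GF LKO mice its replicates ran from 8.97 to 10.8 CPM at ZT10 and from 5.68 to 6.53 CPM at ZT18. In SPF LKO mice they ran from 7.12 to 8.21 CPM at ZT10 and from 4.57 to 5.06 CPM at ZT18. These ZT lie on the high and the low side of the fitted courses, so the values illustrate the fit and add no test.

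**Figure D5:**
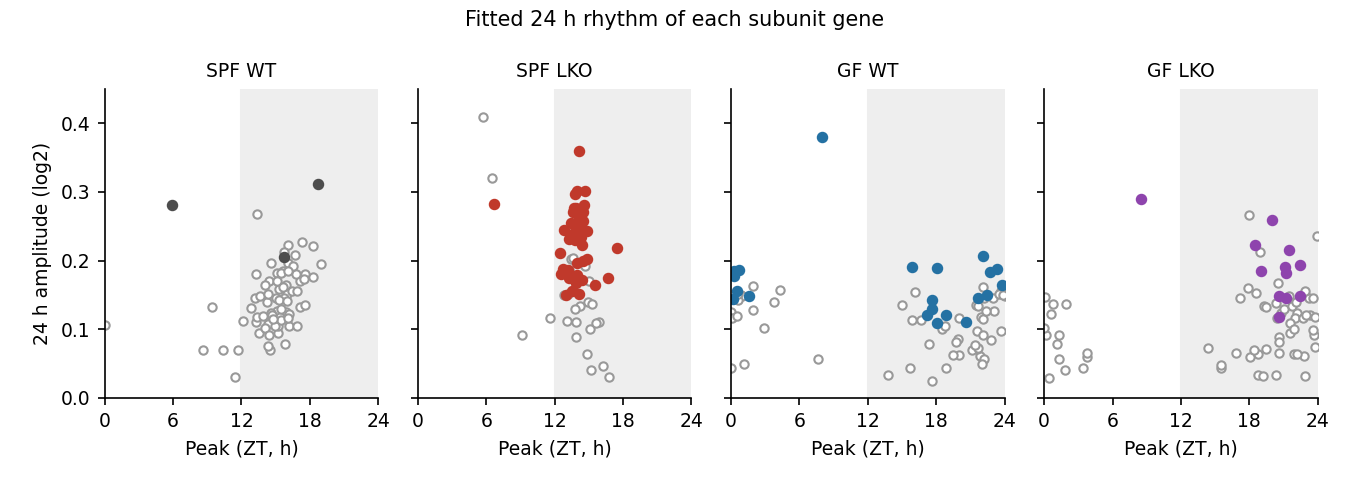
Amplitude on the log2 scale (y axis) against fitted peak in hours of ZT (x axis) for each member, 1 panel per group, with the dark hours from ZT12 to ZT24 in grey. Filled points passed edgeR's test, 12 in GF LKO, 21 in GF WT, 49 in SPF LKO and 3 in SPF WT mice, and the cloud of SPF LKO mice lies near ZT14 while that of GF LKO mice lies after ZT18.

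Differences in daily course between groups were tested in edgeR as interactions of group and cosine, with Benjamini-Hochberg adjustment. Between genotypes 0 members passed in SPF mice (background 1.06%, 4 members at an unadjusted p under 0.05) and 0 in GF mice (6.04%, 6 members). Between microbial conditions 0 passed in WT mice (0.0442%, 22 members), and limma also called 0 in each of these comparisons. Without the doubtful libraries 0 passed in each of them as well. In LKO mice 37 members passed (4.96%), namely 18 of complex I, 1 of complex II, 4 of complex III, 6 of complex IV and 8 of complex V. Atp5o, the stalk subunit of complex V also called OSCP, had the smallest adjusted p (0.00922), with an amplitude of 0.25 in SPF LKO and 0.15 in GF LKO mice and peaks at ZT14.8 and ZT22.4. Ndufa5 (adjusted p = 0.00939) had 0.37 and 0.15, Ndufa1 (0.0134) 0.28 and 0.14, Atp5j (0.0144) 0.25 and 0.10, and Uqcr10 (0.0151) 0.28 and 0.18. The SPF LKO amplitude was the larger in each of these genes, and the peaks of the SPF LKO fits lay between ZT13.7 and ZT14.8. Without the 2 doubtful libraries 18 members passed, all among the 37. With the replicate number as a block 1 passed, and with a mean for each ZT in place of the cosine 0 passed.

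Other genes of the pathway were taken from lists written for this purpose. Their counts stand beside the shares of all genes, which were 14.2% higher and 17.7% lower in GF WT mice and 18.1% and 18.4% in GF LKO mice against SPF, and 11.6% and 11.5% in SPF LKO and 15.6% and 15.2% in GF LKO mice against WT. Of 47 assembly factors tested, 21 were higher and 1 lower in GF than in SPF WT mice (median 0.18) and 23 higher and 2 lower in LKO mice (0.16). Cox17, a copper chaperone for complex IV, was the lower gene in WT mice (-0.77, adjusted p = 3.21e-05 by edgeR) and fell in LKO mice too (-0.51, adjusted p = 0.00528). Under the gene-length offset these counts were 6 and 2, and 7 and 3. Between genotypes 8 assembly factors were higher and 1 lower in SPF LKO mice (median 0.07) and 15 higher and 6 lower in GF LKO mice (0.09). Of the 13 enzyme genes of the tricarboxylic acid cycle, 9 were higher in GF WT and 8 in GF LKO mice and none lower (8 higher and 0 lower, and 6 higher and 1 lower, with the gene-length offset), whereas between genotypes 1 was higher and 3 lower in SPF mice and 2 higher and 5 lower in GF mice. Cs, citrate synthase, was higher in LKO mice (0.47 in SPF and 0.39 in GF mice), while Suclg2, a subunit of succinyl-CoA synthetase (-0.35 and -0.52), was lower. Of 18 genes of mitochondrial content, 11 were higher in GF WT and 12 in GF LKO mice and none lower (8 and 5 higher and 0 lower with the offset), and 2 were higher and 2 lower between genotypes in either condition, the import receptor Tomm20 (0.32 and 0.49) among the higher. Of 10 further genes of the chain, such as cytochrome c1 (Cyc1, 0.29 in WT mice) and Higd1a (0.43 in LKO mice), 5 and 7 were higher in GF mice (2 higher and 1 lower in either genotype with the offset), none was called between genotypes in SPF mice, and 1 was higher and 1 lower in GF mice.

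Among 20 regulators of mitochondrial genes, to be read beside the same shares of all genes, the largest differences between genotypes exceeded those of every member. In all, 3 were higher and 6 lower in SPF mice and 2 higher and 6 lower in GF mice. Esrrg, an oestrogen-related receptor, fell by 1.15 on the log2 scale in SPF and by 1.64 in GF LKO mice (adjusted p = 4.18e-06 and 7.17e-11 by edgeR), while Ppard rose by 1.72 and 1.39. Ppara, the receptor that controls fatty acid oxidation, fell by 0.80 in GF LKO mice, and Ppargc1b, a coactivator of mitochondrial genes, by 0.68 in SPF LKO mice. Between microbial conditions 2 regulators were higher and 1 lower in WT and 1 higher and 4 lower in LKO mice. Tfb1m, which modifies mitochondrial ribosomal RNA, was higher in both (0.37 and 0.30).

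Of the 13 protein genes of the mitochondrial chromosome, 7 could be tested. The rest, mt-Co2, mt-Co3, mt-Atp6, mt-Atp8, mt-Nd3 and mt-Nd4l, had at most 0.0943 CPM in any library. The mean of mt-Co1 was 21790 CPM in SPF WT mice, and why so few reads were counted for the others was not tested. All 7 genes tested were lower in LKO mice, where 11.5% (SPF) and 15.2% (GF) of all genes were lower. The 7 had a median of -0.31 in SPF and -0.49 in GF mice. They included mt-Co1, the catalytic subunit of complex IV (-0.43 and -0.63), mt-Cytb of complex III (-0.39 in SPF mice) and mt-Nd1 of complex I (-0.58 in GF mice). The nuclear members had medians of -0.08 and -0.12 in the same comparisons. Between microbial conditions 3 of 7 were higher in GF WT mice (median 0.24) and 1 in GF LKO mice (0.07), where under the gene-length offset 3 were lower instead (median -0.10). The share of all counts on the mitochondrial chromosome had medians of 6.68% in SPF WT, 5.57% in SPF LKO, 7.02% in GF WT and 5.47% in GF LKO libraries. It holds almost no reads of the genes that could not be tested, and its part in the results was not tested.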

How the data were processed

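Liver RNA of 72 mice was analysed, 18 in each of 4 groups. To make the deposited counts, the authors prepared stranded mRNA libraries, aligned single-end reads to mm10 with STAR 2.6.1b and counted them per gene with featureCounts 2.0.0 on Ensembl exons. Strand was not used, and reads with more than 1 place in the genome or over more than 1 gene were dropped. The counts are not normalized, and 0 columns were left unused. Levels are CPM after TMM scaling, and coordinates are those of GENCODE vM21, which held 55394 of 55573 genes. Groups were compared by edgeR 4.0.16 in R 4.3.3 (quasi-likelihood test, its filter on low counts, Benjamini-Hochberg adjustment over all genes tested, threshold 0.05), with DESeq2 1.42.0 and limma 3.58.1 as other tools. Pairs of groups were fitted on 36 libraries with ZT pooled, single ZT on 4 group means, and rhythms on a cosine of 24 h. The tests were checked on simulated data. Named members are the 5 largest changes, amplitudes and rhythm differences called in each comparison, the ends of each complex by level, complex II and the paralog groups. Members and lists were chosen with earlier results of these data known. Each library is 1 mouse, and all ran on the same lanes.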

Additional observations from a re-analysis of the deposited data

Results flagged for a closer look

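The difference in daily course between SPF and GF mice was past the test for 37 members in LKO mice, by the interaction term in edgeR's quasi-likelihood fit with Benjamini-Hochberg adjustment, and for 0 in WT mice. The members with the smallest adjusted p were Atp5o (0.00922), Ndufa5 (0.00939), Ndufa1 (0.0134), Atp5j (0.0144) and Uqcr10 (0.0151). Whether the difference itself was unlike between the genotypes was not tested. Of the 37 members, 18 passed without the 2 SPF LKO libraries whose Npas2 went against their labels. An offset for gene length left 14, and the replicate number as a block left 1. A mean for each ZT in place of the cosine left 0.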

How the results depend on the processing

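Under the alternatives run, members named in the report kept direction and call in 1285 of 1376 cases, kept the direction and lost the call in 91 and reversed in 0. The counts moved as follows, and the cause was not tested except where the setting drops libraries, genes or small differences. For genotype in SPF mice (2 higher, 1 lower), DESeq2, no filter on low counts and a minimum of 10 CPM left 1 higher. Lower members numbered 0 without the filter, 5 with ZT as a covariate, 19 without the 2 SPF LKO libraries with low Npas2 and 20 without all 4 libraries whose clock genes stood apart. Without those 4, 4 members were higher in GF LKO mice. With the gene-length offset, chosen after seeing the data, genotype in SPF mice gave 5 higher and 18 lower, GF against SPF 37 higher and 3 lower in WT and 27 higher and 3 lower in LKO mice, rhythms 9 in SPF WT and 20 in SPF LKO mice, and rhythm differences 1 by genotype in GF mice and 14 by microbial status in LKO mice. A log2 difference of at least 0.5 left 0 in every comparison of pooled ZT except Atp5l, which a minimum of 10 CPM removed (0 lower in both genotypes). Within a ZT, DESeq2 called 1 in SPF mice at ZT2, ZT6, ZT14 and ZT22, and in GF mice 1 at ZT14 and 6 at ZT18. Without the filter there were 1, 6 and 1 in SPF mice at ZT6, ZT10 and ZT22 and 0 and 5 in GF mice at ZT6 and ZT18, where DESeq2's size factors gave 0. A mean for each ZT in place of the cosine gave 0 rhythmic members in SPF WT, 1 in SPF LKO and 2 in GF WT mice and 0 differences by microbial status in LKO mice, and no filter gave 6 in GF WT mice. Rhythms without the doubtful libraries numbered 9 in SPF WT and 27 in SPF LKO mice, and 18 differences remained in LKO mice.

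Leaving out single libraries gave 1 to 2 higher and 1 to 10 lower members for genotype in SPF mice (10 without SPF LKO ZT14 replicate 2), 2 to 4 higher in GF mice (4 without GF WT ZT6 replicate 3) and 1 to 2 lower for GF against SPF in WT mice. Within a ZT it gave 0 to 1 in SPF mice at ZT2, ZT6 and ZT22, 0 to 23 at ZT10 and 0 to 2 at ZT14, and in GF mice 0 to 2 at ZT2, 0 at ZT6 and 0 to 1 at ZT18. Rhythmic members ranged from 1 to 9 in SPF WT (9 without SPF WT ZT14 replicate 3), 29 to 52 in SPF LKO (29 without SPF LKO ZT14 replicate 2), 9 to 32 in GF WT (9 without GF WT ZT10 replicate 2, 32 without GF WT ZT2 replicate 2) and 4 to 26 in GF LKO mice (4 without GF LKO ZT10 replicate 1, 26 without GF LKO ZT22 replicate 1). Differences in rhythm ranged from 0 to 1 by genotype in GF mice and from 18 to 48 by microbial status in LKO mice (18 without GF LKO ZT2 replicate 1).

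Same-numbered libraries of 2 groups had at most 6 of 18 pairs correlated above 0.1 in their deviations, and the highest correlation was 0.52. Their median correlations ran from -0.07 to 0.03, and those of other pairs from -0.04 to 0.08. These values do not settle whether the numbers pair samples. With the replicate number as a block, genotype in SPF mice gave 7 lower members, SPF ZT10, GF ZT6 and GF ZT18 gave 0 each and the rhythm difference in LKO mice 1. Each comparison within a ZT has 3 mice a group, which limits what could be called there. Levels of a few CPM, as for Atp5l, Ndufb4 and Ndufa4l2, rest on few counts.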

Other observations

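Ribosomal protein genes, a list chosen after values were seen, rose in GF mice as the members did but differed from them by genotype. GF against SPF followed exon length in genes at large, and no count with the length offset is given for this list. Shares of all genes were 14.2% higher and 17.7% lower in GF WT mice, and 18.1% and 18.4% in GF LKO mice. By genotype they were 11.6% and 11.5% under SPF, and 15.6% and 15.2% under GF conditions. Of 71 cytosolic ribosomal protein genes, 50 were higher and 4 lower in GF than in SPF WT mice (median log2 difference 0.28) and 58 higher and 2 lower in LKO mice (0.35). By genotype, LKO livers had 22 higher and 0 lower under SPF (0.14) and 55 higher and 0 lower under GF conditions (0.26), the direction opposite to that of most respiratory chain members there. Of 77 mitochondrial ribosomal protein genes, 48 and 51 were higher and 0 lower in GF WT and GF LKO mice (medians 0.18 and 0.20), and between genotypes 6 were higher and 1 lower in SPF and 11 higher and 3 lower in GF mice.

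Ndufb1-ps, a symbol of the complex I family that the annotation lists as a noncoding RNA and that was therefore no member, had a mean of 102.9 CPM. The other pseudogenes matched by symbol had means of 0.0708 CPM or less.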
